A study of Mus musculus with 30 samples.

Results

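Checkpoint ligands and costimulatory molecules were described at the RNA level in J774A.1, a mouse macrophage-like cell line, before and after interferon-gamma (IFNG). The set held 9 genes of the 54146 in the count table, chosen by name: Cd274, Pdcd1lg2, Cd80, Cd86, Icosl, Cd40, Icam1, Cd47 and Sirpa. RNA-seq libraries came from 3 wild-type (WT) clones and 2 knockout (KO) clones, each either untreated or given 100 ng/mL mouse IFNG for 4 h. In the KO clones both copies of B2_Mm2.Dicer1, a transposable element in the first intron of Dicer1, were removed by CRISPR, whereas the WT clones were grown from single cells without editing. Each clone and treatment had 3 libraries, giving 30 in all, left after the authors merged technical replicates. Neither the labels nor the methods state whether these 3 were separate cultures. The p-values therefore measure the spread between libraries, which may not be that between cultures. Each KO clone is a single clonal line, so a difference between KO and WT rests on 2 lines against 3.

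A T cell that recognizes antigen reads a second set of signals from the surface of the presenting macrophage. CD80 and CD86 bind CD28 to costimulate and CTLA4 to restrain, ICOSL binds ICOS, and PD-L1 (encoded by Cd274) and PD-L2 (encoded by Pdcd1lg2) bind PD-1 to dampen the T cell. CD40 is a receptor through which T cells carrying CD40 ligand activate the macrophage, ICAM1 holds the contact together through the integrin LFA-1, and SIRPA on macrophages restrains phagocytosis when it meets CD47 on another cell. Promoters of IFNG-responsive genes often carry GAS elements or sites for IRF family factors such as IRF1.

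Libraries held between 15566122 and 37992642 counted fragments. The IFNG response genes Irf1 and Gbp2 rose in every clone, with log2 fold changes (log2FC) over all clones of 5.11 and 7.74. Dicer1, the gene that houses the deletion, was at 71.5 CPM (counts scaled to library size by TMM) in untreated KO1 and 105 in untreated KO2, against 105 to 128 in the WT clones, and after IFNG at 75.0 and 99.6 against 136 to 161. All 9 macrophage markers averaged at least 1 CPM, with a summed level of 4400 to 7004 CPM in untreated and 4103 to 6499 CPM in treated libraries. Among them, 1 rose over all clones (Fcgr1, an activating Fc receptor, log2FC 2.23) and 5 fell, beside 24.9% and 28.3% of all genes tested. The summed level does not show single markers, and Adgre1 ran from 9.27 to 294 CPM over the untreated libraries. Of 9 T cell markers, Cd3g, Cd2, Cd8a and Cd8b1 had no count in any library, and the summed level of 4.54 to 45.9 CPM untreated and 8.11 to 51.5 CPM treated came mostly from Lck and Cd5. The 5 B cell markers summed to at most 0.380 CPM, the 5 dendritic cell markers to 1.52 to 5.72 CPM (mostly Zbtb46) and the 4 fibroblast markers to 0.331 to 2.92 CPM (mostly Pdgfra). These are bulk libraries, so a change in every cell and a change in some of the cells cannot be told apart.

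Of the 9 genes, 8 passed the filter on low counts and were tested with edgeR, and Pdcd1lg2 did not pass. Cd274, Cd40, Icam1, Cd86, Cd47 and Icosl were higher after IFNG in all 5 clones, by between 1.17-fold (Icosl in KO2) and 59.7-fold (Cd274 in WT3). Sirpa was lower over all clones by a small margin, and Cd80 passed the test in neither direction. In the fit over all clones, 6 of 8 members rose where 24.9% of the 14525 genes tested rose, and 1 of 8 fell where 28.3% fell. Within single clones the members that rose were 6 of 8 each time, beside 11.8% of genes in WT1, 17.4% in WT2, 18.6% in WT3, 16.2% in KO1 and 13.9% in KO2. A fall was called for 1 member in WT2 and 1 in KO2, both times Sirpa, beside 17% and 13.2% of genes, and for 0 members in WT1, WT3 and KO1, beside 9.47%, 17.5% and 13.2%. The members' median log2FC over all clones was 0.79, and that of all genes tested was -0.0081. Because the members were chosen with earlier results of these data known, these shares and medians are descriptive.

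**Figure D1:**
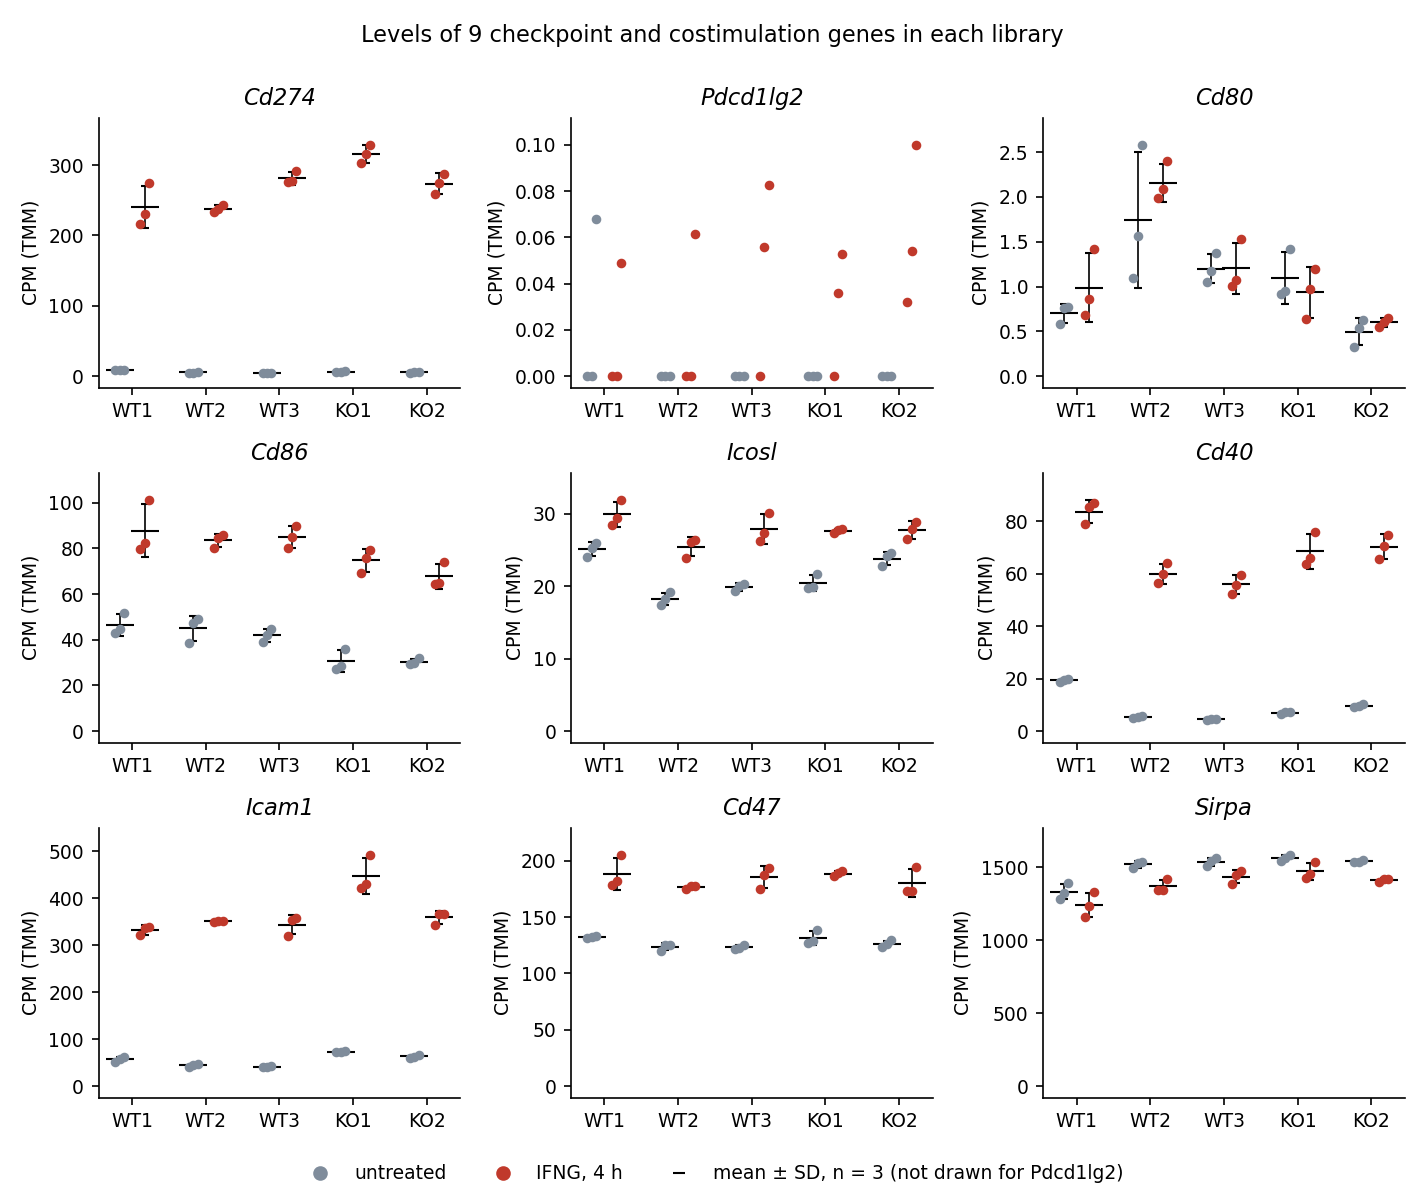
Level of each gene in all 30 libraries, in CPM with TMM scaling, by clone (horizontal axis) and treatment (color), where points are libraries and black marks are the mean ± SD of 3. The treated points stand above the untreated points in every clone for Cd274, Cd86, Icosl, Cd40, Icam1 and Cd47, while Pdcd1lg2 never exceeds 0.0999 CPM.

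The PD-1 ligands were examined first. Cd274 (ENSMUSG00000016496.7) lies on chromosome 19, positions 29367455 to 29388095 of mm10 on the plus strand, and Pdcd1lg2 (ENSMUSG00000016498.9) follows it on the same strand at 29410919 to 29471157, with 22.8 kb between them. In untreated WT libraries, Cd274 was at 8.23, 8.53 and 8.62 CPM in WT1, at 5.00, 5.09 and 5.52 CPM in WT2 and at 4.17, 4.76 and 5.11 CPM in WT3. Untreated KO libraries held Cd274 at 5.84, 6.17 and 7.01 CPM in KO1 and at 4.68, 5.48 and 5.54 CPM in KO2. WT1 stood above the other 4 clones before treatment, and WT2, WT3 and KO2 overlapped. After IFNG, Cd274 reached 217, 229.9 and 275 CPM in WT1, 233, 238 and 243 CPM in WT2 and 276, 277 and 292 CPM in WT3. The treated KO libraries were at 302, 315 and 328 CPM in KO1 and at 258, 275 and 287 CPM in KO2. Every treated library was therefore far above every untreated one, whichever the clone. The log2FC was 4.82 ± 0.10 (SE) in WT1, 5.52 ± 0.05 in WT2, 5.90 ± 0.07 in WT3, 5.66 ± 0.07 in KO1 and 5.70 ± 0.07 in KO2. Over all clones the change was 44.6-fold (95% interval 40.2 to 49.4, edgeR adjusted p = 5.13e-36), and Cd274 held place 50 when all 14525 tested genes were ordered by log2FC. That interval takes libraries as replicates of a shared response, and single clones ran beyond it, from 28.2-fold in WT1 to 59.7-fold in WT3. With counts summed per clone, the edgeR adjusted p was 2.61e-11.

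Pdcd1lg2 was close to undetected. It had 2 counts over the 15 untreated libraries, both in 1 library of WT1, and 12 counts over the 15 treated libraries, with 0 counts in 14 untreated and 6 treated libraries. No library held more than 2 counts, which is under the limit of 3 counts used for detection (0.0790 to 0.193 CPM, depending on the library), so no fold change is given. Without the filter on low counts, edgeR called 8 of 9 members over all clones, all but Cd80, beside 7934 of 29004 genes. Pdcd1lg2 was thus called in that fit, on a total of 14 counts. The 2 genes side by side on chromosome 19 thus differed in level after IFNG, with at least 217 CPM for Cd274 and at most 0.0999 CPM for Pdcd1lg2 in any treated library.

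Promoter sequences from RefSeq (GRCm38.p6, the assembly also called mm10) spanning 250 bases before to 50 after the gene start were found for 6 of the 9 genes, Cd274, Pdcd1lg2, Cd80, Icosl, Icam1 and Cd47, and not for Cd40, Cd86 and Sirpa. Both strands were searched for a GAS motif (TTCNNNGAA), an IRF core (AANNGAAA, or TTTCNNTT on the other strand) and a kappaB motif (GGGNNTTTC). The RefSeq start is not always that of the count table, and for Icosl, Cd80 and Cd47 it lies inside the gene as the count table gives it. Among all 32851 promoters in the table, 8.30% held the GAS letters, 23.9% the IRF core and 4.36% the kappaB letters. The windows of Cd274 and Pdcd1lg2 each held 1 IRF core, printed in capitals to set the neighbouring ligands beside each other. The Cd274 window is chr19:29367188-29367487 on the plus strand with the match at bases 76 to 83 of the window, and the Pdcd1lg2 window is chr19:29410669-29410968 on the plus strand with the match at bases 216 to 223.
Cd274: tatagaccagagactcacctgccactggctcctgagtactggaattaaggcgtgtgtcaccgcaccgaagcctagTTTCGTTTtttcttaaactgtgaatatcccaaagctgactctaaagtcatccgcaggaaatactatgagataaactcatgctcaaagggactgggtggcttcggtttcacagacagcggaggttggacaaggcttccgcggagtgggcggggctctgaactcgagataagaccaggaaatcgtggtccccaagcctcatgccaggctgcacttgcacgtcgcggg
Pdcd1lg2: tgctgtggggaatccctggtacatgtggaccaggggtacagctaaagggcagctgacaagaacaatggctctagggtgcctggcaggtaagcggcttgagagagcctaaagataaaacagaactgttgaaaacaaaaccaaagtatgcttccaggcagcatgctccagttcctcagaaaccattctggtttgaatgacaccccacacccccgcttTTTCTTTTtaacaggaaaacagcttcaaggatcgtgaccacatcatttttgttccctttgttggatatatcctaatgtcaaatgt
The IRF core letters were thus present both at the gene that rose and at the gene that stayed under the detection limit. Cd80 held 1 IRF core too, and Icosl and Cd47 held none of the 3 motifs. None of the 6 genes with a window held the letters GGGNNTTTC. Other forms of a kappaB site were not searched for, so their absence from these promoters is not shown.

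The interval around both ligands held other genes that rose. Of 8 tested genes within 250 kb of Cd274, 5 were higher after IFNG and 0 were lower, and of 8 within 250 kb of Pdcd1lg2 (Cd274 included), 6 were higher and 1 was lower. Plgrkt, a plasminogen receptor gene on the opposite strand whose start lies 0.065 kb from that of Cd274, head to head, went from 28.4 ± 3.17 CPM (SD, n = 15) to 43.4 ± 5.65 CPM, a log2FC of 0.62 ± 0.03. Jak2, the kinase attached to the IFNG receptor, lies 54.4 kb upstream and went from 38.02 ± 2.46 to 61.3 ± 4.44 CPM, a log2FC of 0.69 ± 0.03. Ric1 and Insl6 rose with log2FC of 0.40 ± 0.04 and 0.29 ± 0.09, and the fifth, A930007I19Rik, stayed below 1 CPM. In none of these was the change near that of Cd274. Over all members, 73 tested neighbours within 250 kb, each counted once, included 22 that rose (30.1%) and 17 that fell (23.3%), beside 24.9% and 28.3% of all genes. Rising neighbours were not particular to the PD-1 ligands, as 5 of 6 tested genes around Cd86 rose and 0 fell. Of these, Ildr1 and Gm49662 rose by log2FC of 2.89 and 1.63 but stayed below 1 CPM. Around the other members at 1 CPM or more, S1pr2, a sphingosine-1-phosphate receptor 39.2 kb from Icam1, rose by a log2FC of 0.88 ± 0.04. Elmo2, 215 kb from Cd40, rose by 0.62 ± 0.03. Pde4a, 137 kb from Icam1, fell by 0.64 on the log2 scale, and Arhgap31, 102 kb from Cd80, fell by 0.55.

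**Figure D2:**
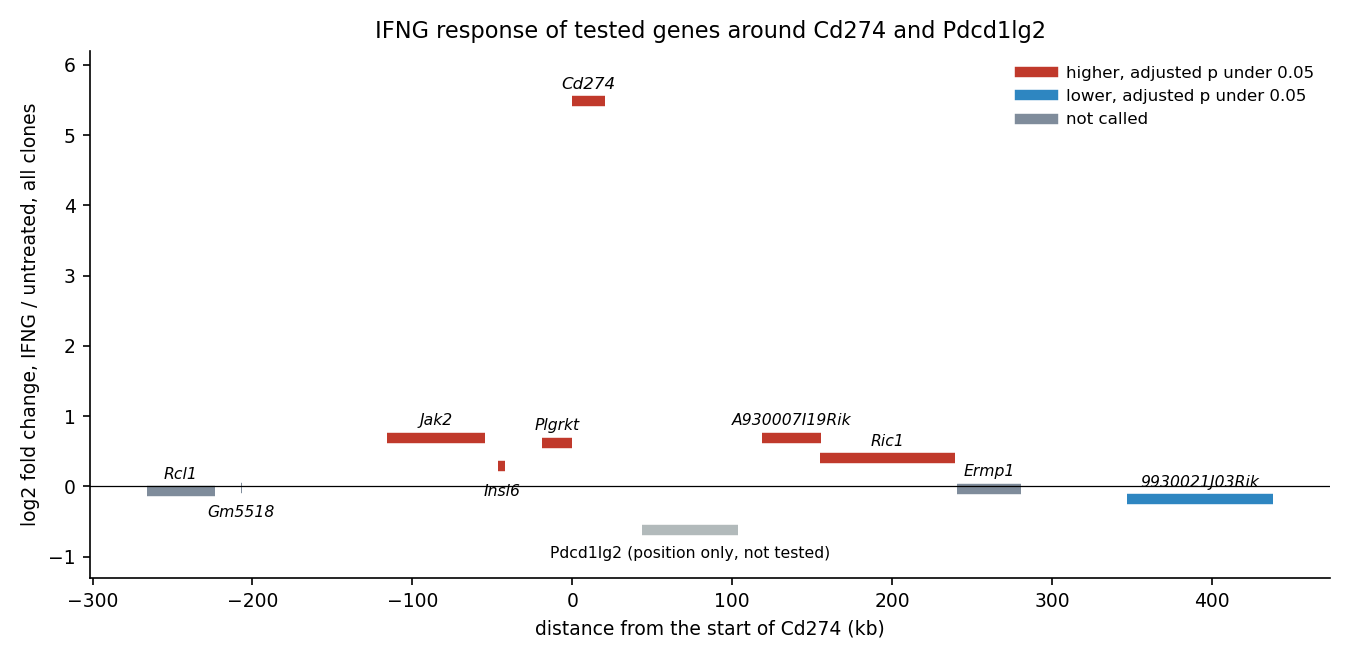
Log2FC over all clones (vertical axis) of the tested genes around Cd274 and Pdcd1lg2, drawn from gene start to gene end at their distance in kb from the start of Cd274 (horizontal axis), with color for the edgeR call. Cd274 stands at 5.48 and its neighbours between -0.18 and 0.69.

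Among the B7 family ligands that costimulate through CD28 and ICOS, Cd86 rose by a log2FC of 0.90 to 1.32 in single clones, Icosl by 0.22 to 0.50, and Cd80 did not pass the test. Cd86 (ENSMUSG00000022901.13, chromosome 16, 36603869 to 36666081, minus strand) was at 42.8, 44.6 and 51.8 CPM in untreated WT1, at 38.8, 47.2 and 49.2 CPM in WT2 and at 39.2, 42.2 and 44.7 CPM in WT3. The untreated KO libraries held 27.1, 28.7 and 36.1 CPM in KO1 and 29.5, 29.8 and 31.95 CPM in KO2, all below the lowest untreated WT library. With IFNG, Cd86 was at 79.9, 82.6 and 101 CPM in WT1, at 80.3, 84.5 and 86.0 CPM in WT2 and at 80.2, 84.999 and 89.8 CPM in WT3. In treated KO libraries it was at 69.4, 75.7 and 79.5 CPM in KO1 and at 64.4, 64.9 and 74.2 CPM in KO2. Again the KO libraries lay below all WT libraries, by a narrow gap, and treated and untreated libraries did not overlap. The log2FC ran from 0.90 in WT2 to 1.32 in KO1, and over all clones Cd86 rose 2.07-fold (95% interval 1.94 to 2.22, edgeR adjusted p = 7.57e-20). The rise in level was 37.4 CPM in KO2 and 44.2 CPM in KO1, with the 3 WT clones in between.

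Cd80 (ENSMUSG00000075122.5, chromosome 16, 38455561 to 38496335, plus strand), the other ligand of CD28 and CTLA4, was sparse, with 9 to 41 counts per library. Its untreated mean was 0.702 ± 0.108 CPM (SD, n = 3) in WT1, 1.74 ± 0.76 in WT2, 1.20 ± 0.16 in WT3, 1.09 ± 0.29 in KO1 and 0.497 ± 0.152 in KO2. After IFNG the means were 0.988 ± 0.387, 2.16 ± 0.21, 1.20 ± 0.28, 0.936 ± 0.285 and 0.601 ± 0.049 CPM in the same order. Treated and untreated libraries overlapped in all 5 clones, and the log2FC over all clones was 0.18 (95% interval -0.09 to 0.45, edgeR adjusted p = 0.265). A change of up to 1.36-fold upward is inside that interval, so a small rise could not be told from none at these counts.

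Icosl (ENSMUSG00000000732.9, chromosome 10, 78069302 to 78083913, plus strand) rose from 25.1 ± 0.97 to 29.9 ± 1.75 CPM (SD, n = 3) in WT1, from 18.3 ± 0.84 to 25.4 ± 1.33 CPM in WT2 and from 19.8 ± 0.52 to 27.9 ± 2.04 CPM in WT3. The KO clones went from 20.4 ± 1.05 to 27.6 ± 0.30 CPM (KO1) and from 23.8 ± 0.94 to 27.7 ± 1.19 CPM (KO2). No treated library overlapped the untreated libraries of its own clone. The rise over all clones was 1.29-fold (95% interval 1.23 to 1.35, edgeR adjusted p = 1.03e-11). It was smallest in WT1 and KO2, with log2FC of 0.24 and 0.22 (edgeR adjusted p = 0.0319 and 0.0192), the clones where untreated Icosl was highest. The untreated level enters the log2FC, and their relation was not tested. The responses of the 5 clones were not called different (edgeR adjusted p = 0.141). Leaving out single libraries took the adjusted p up to 0.160 in WT1 and 0.121 in KO2, and each clone's call was lost in most of these fits.

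Cd40, the receptor for T cell help, had the response that differed most between clones among the members. Cd40 (ENSMUSG00000017652.16, chromosome 2, 165055627 to 165072948, plus strand) was at 18.5, 19.4 and 19.97 CPM in untreated WT1 but at 5.14, 5.47 and 5.57 CPM in WT2 and at 4.41, 4.58 and 4.61 CPM in WT3. Untreated KO1 held 6.67, 7.16 and 7.17 CPM and untreated KO2 held 9.09, 9.73 and 10.3 CPM. The 5 clones did not overlap before treatment, in the order WT1, KO2, KO1, WT2 and WT3 from high to low. After IFNG, Cd40 was at 78.8, 85.2 and 86.9 CPM in WT1, at 56.2, 59.8 and 63.8 CPM in WT2 and at 52.1, 55.8 and 59.6 CPM in WT3. KO1 reached 63.5, 65.9 and 75.9 CPM and KO2 65.4, 70.6 and 74.9 CPM. WT1 was still the highest, while KO1 overlapped KO2 and WT2, and WT2 overlapped WT3. Expressed as log2FC, the response was 2.104 ± 0.07 (SE) in WT1, 3.49 ± 0.08 in WT2, 3.63 ± 0.08 in WT3, 3.32 ± 0.09 in KO1 and 2.85 ± 0.08 in KO2. This order is the reverse of that of the untreated levels. Expressed as a rise in level, WT1 instead gained the most, 64.3 CPM, and the other clones gained 51.3 to 61.4 CPM. The untreated level enters both measures, so their relation was not tested. Over all clones Cd40 rose 7.70-fold (95% interval 6.67 to 8.90, edgeR adjusted p = 2.06e-23). That interval takes libraries as replicates of a shared response, and single clones ran beyond it, from 4.30-fold in WT1 to 12.4-fold in WT3. With counts summed per clone, the edgeR adjusted p was 9.86e-08.

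Icam1, the adhesion ligand of LFA-1, rose to the highest level of the induced members in CPM. Icam1 (ENSMUSG00000037405.8) lies on chromosome 9 at 21015985 to 21028817 on the plus strand. Its untreated libraries were at 52.2, 57.8 and 61.1 CPM in WT1, at 40.9, 44.0 and 47.6 CPM in WT2 and at 40.4, 40.7 and 42.4 CPM in WT3. The untreated KO libraries were at 71.8, 73.5 and 75.7 CPM in KO1 and at 60.8, 62.9 and 65.5 CPM in KO2. KO1 stood above every other clone, and KO2 overlapped WT1 by 1 library on each side. Treated libraries were at 321, 338 and 338 CPM in WT1, at 350.2, 352 and 352 CPM in WT2 and at 320.4, 354 and 358 CPM in WT3. Treated KO1 was at 421, 429.5 and 492 CPM and treated KO2 at 344, 367 and 367 CPM. KO1 was again apart from the rest, and each of the other 4 clones overlapped its neighbour in the order KO2, WT2, WT3 and WT1. The log2FC was 2.53 ± 0.07 in WT1, 3.02 ± 0.05 in WT2, 3.08 ± 0.05 in WT3, 2.63 ± 0.06 in KO1 and 2.51 ± 0.05 in KO2. Over all clones Icam1 rose 6.65-fold (95% interval 6.19 to 7.15, edgeR adjusted p = 1.04e-31). That interval too takes libraries as replicates of a shared response, and single clones ran from 5.69-fold in KO2 to 8.43-fold in WT3. With counts summed per clone, the edgeR adjusted p was 3.68e-10.

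Icam1 was the only one of the 6 members with a promoter in the table whose window held the GAS letters, and that window is printed for this reason with the motif in capitals. It is chr9:21015690-21015989 of GRCm38.p6 on the plus strand, and the match covers bases 209 to 217 of the window. No IRF core was in the window.
Icam1: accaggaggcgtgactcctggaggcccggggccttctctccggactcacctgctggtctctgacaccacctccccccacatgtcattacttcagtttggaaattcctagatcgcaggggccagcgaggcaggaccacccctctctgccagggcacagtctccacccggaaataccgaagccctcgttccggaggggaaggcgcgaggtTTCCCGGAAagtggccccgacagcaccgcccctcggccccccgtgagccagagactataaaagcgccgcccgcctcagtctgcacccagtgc

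**Figure D3:**
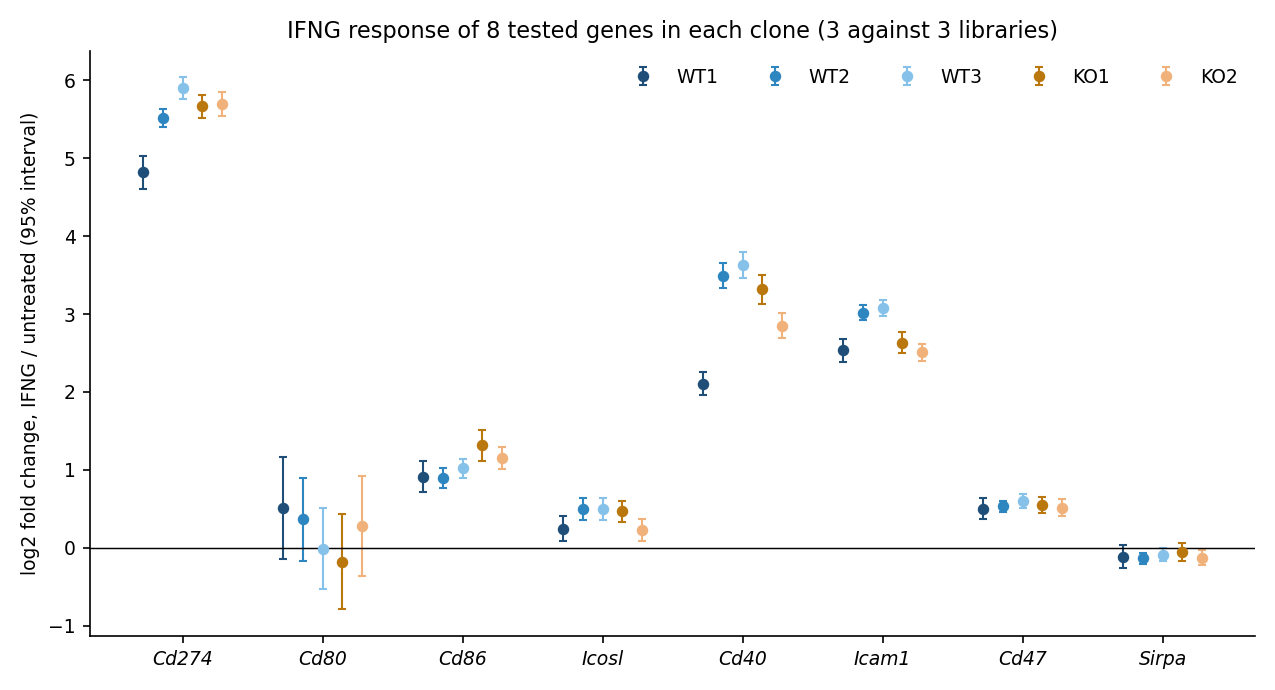
Log2FC of IFNG against untreated libraries (vertical axis) for the 8 tested genes in each clone, from separate edgeR fits of 3 against 3 libraries, where points are estimates and bars are 95% intervals. WT1 lies below the other clones for Cd274 (4.82) and Cd40 (2.104), and the 5 clones lie close together for Cd47 (0.50 to 0.60).

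Cd47 and Sirpa, the signal and the receptor of the phagocytosis checkpoint, moved in opposite directions. Cd47 (ENSMUSG00000055447.19, chromosome 16, 49800533 to 49915010, plus strand) was at 120.3 to 138 CPM in the untreated libraries and at 173 to 205 CPM in the treated libraries, with no overlap. Its mean went from 132 ± 0.74 to 189 ± 14.3 CPM (SD, n = 3) in WT1 and from 124 ± 3.01 to 177 ± 1.36 CPM in WT2. Cd47 rose 1.44-fold over all clones (95% interval 1.40 to 1.49, edgeR adjusted p = 2.60e-21), with a log2FC between 0.50 and 0.60 in single clones. Sirpa (ENSMUSG00000037902.18, chromosome 2, 129592835 to 129632228, plus strand) was the most abundant member. Its mean went from 1335 ± 54.7 to 1244 ± 83.3 CPM in WT1, from 1521 ± 22.7 to 1369 ± 44.4 CPM in WT2 and from 1539 ± 27.7 to 1437 ± 46.0 CPM in WT3. In the KO clones it went from 1563 ± 20.6 to 1474 ± 58.0 CPM (KO1) and from 1545 ± 7.66 to 1415 ± 10.3 CPM (KO2). Treated and untreated Sirpa libraries overlapped in WT1 alone. The fold over all clones was 0.925 (95% interval 0.901 to 0.950, edgeR adjusted p = 4.17e-06), and single clones passed the test in WT2 (adjusted p = 0.00192) and KO2 (adjusted p = 0.0483). The KO2 call was lost with another normalization (adjusted p = 0.0520) and without 5 of its 6 libraries in turn.

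To compare levels between genes, CPM was divided by the exon length in kb. By the median of the 5 untreated clone means, the order was Sirpa at 313, Cd47 at 20.1, Icam1 at 13.1, Cd86 at 11.5, Icosl at 4.42, Cd40 at 2.06, Cd274 at 1.45 and Cd80 at 0.296 CPM per kb. After IFNG it was Sirpa at 288, Icam1 at 80.6, Cd274 at 75.5, Cd47 at 29.5, Cd86 at 22.8, Cd40 at 20.1, Icosl at 5.999 and Cd80 at 0.267 CPM per kb. Cd274 therefore went from rank 7 to rank 3 of the 9 genes, and did so in each of the 5 clones. Its level per kb after IFNG, 65.7 to 87.0 over the clones, was above that of Cd86 (18.5 to 24.004) in every clone, whereas before treatment it was below that of Cd86 in every clone (1.29 to 2.34 against 8.31 to 12.7).

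**Figure D4:**
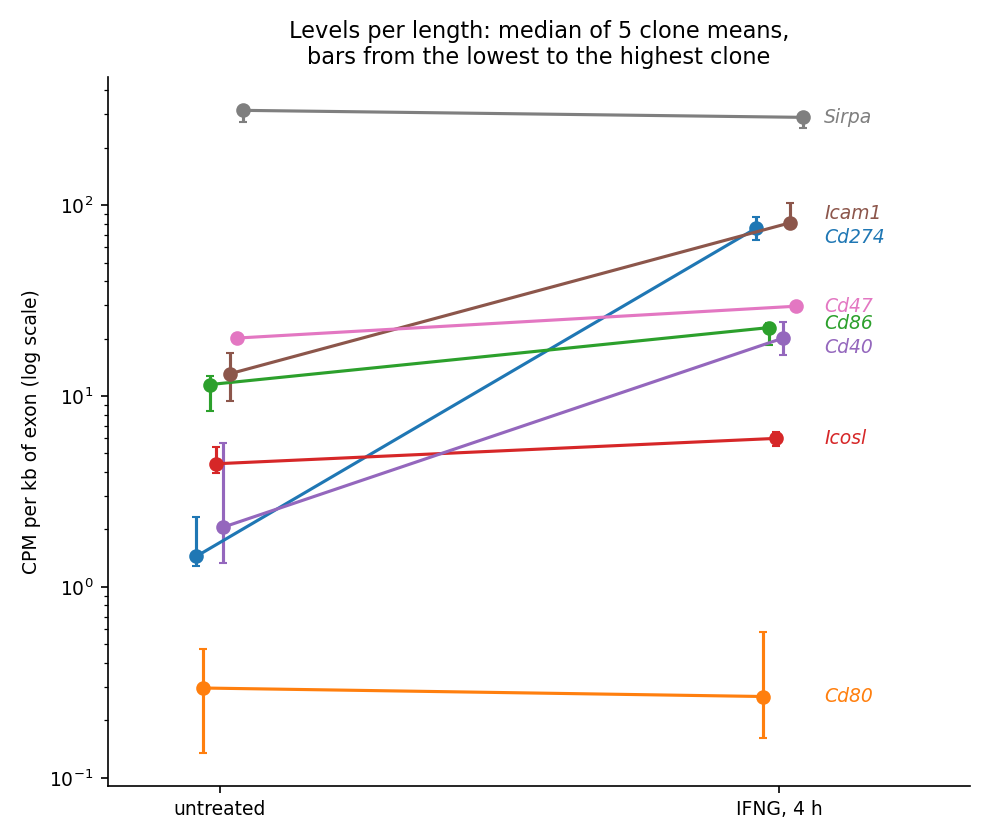
Level per exon length in CPM per kb (vertical log axis) before and after IFNG, where points are medians of 5 clone means and bars run from the lowest to the highest clone. The Cd274 line crosses those of Cd40, Icosl, Cd86 and Cd47, from 1.45 to 75.5 CPM per kb. Pdcd1lg2 is not drawn because its untreated median is 0.

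Whether the clones responded to different degrees was tested in 1 fit over all 30 libraries. Responses differed among the 5 clones for 3 of 8 members, Cd40 (edgeR adjusted p = 7.43e-11), Cd274 (2.29e-06) and Icam1 (8.81e-06), beside 3.68% of the 14870 genes tested. For Cd86, Icosl, Cd80, Cd47 and Sirpa the adjusted p was 0.318, 0.141, 0.836, 0.947 and 0.959, and without the filter on low counts Cd86 was called too (edgeR adjusted p = 0.000409). Without WT1, the Cd274 difference was lost (adjusted p = 0.244), while those of Cd40 and Icam1 kept their calls without any 1 clone. Untreated levels differed among the clones for all 8 tested members, beside 73.2% of the 14467 genes tested. For Sirpa that call rested on WT1 (adjusted p = 0.754 without it), and for Cd47 it was close to the threshold (adjusted p = 0.0441) and was lost with DESeq2 (0.0652) and without WT1, WT2 or WT3 (0.108 to 0.166). The Cd47 call was also lost with another normalization and without the filter on low counts, so it did not hold in 6 of 9 alternatives.

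Whether the deletion goes with a different level or response was addressed by setting KO against WT clones. None of the 8 tested members had a different IFNG response in KO and WT clones by the edgeR interaction test, beside 0.681% of genes with a larger and 0.341% with a smaller response in KO. At an unadjusted p under 0.05 there were 3, beside 1366 of 14682 genes, and DESeq2 called 1, beside 211 of 14682 genes. Without the filter on low counts, edgeR called those 3, Cd274 and Cd86 with a larger and Icam1 with a smaller response in KO (adjusted p of 0.000899, 0.000305 and 2.17e-06). That fit called 384 of 29004 genes. The interaction log2FC of Icam1 was -0.30 (95% interval -0.47 to -0.13, edgeR adjusted p = 0.0716, DESeq2 adjusted p = 0.0455), that of Cd86 0.28 (0.10 to 0.45, edgeR adjusted p = 0.146) and that of Cd274 0.33 (0.03 to 0.62, edgeR adjusted p = 0.457). The Cd40 interaction of 0.18 (-0.24 to 0.61) depended on WT1, without which it was -0.50 (edgeR adjusted p = 0.00595), and that of Cd274 went to -0.04 without WT1. Without WT1 the Icam1 interaction was -0.47 (edgeR adjusted p = 3.66e-06), and without WT3 that of Cd274 was 0.57 (edgeR adjusted p = 0.0269).

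In level, untreated KO libraries had less Cd86 and more Icam1 than WT libraries. These were 1 member lower, beside 14.4% of 13886 genes, and 1 higher, beside 12.2%. Cd86 was 0.684-fold of the WT level (95% interval 0.614 to 0.762, edgeR adjusted p = 4.86e-05), with the 6 KO libraries between 27.1 and 36.1 CPM and the 9 WT libraries between 38.8 and 51.8 CPM. Icam1 was 1.43-fold of the WT level (1.24 to 1.65, edgeR adjusted p = 0.000923), from 60.8 to 75.7 CPM in KO and from 40.4 to 61.1 CPM in WT, and without KO1 its adjusted p was 0.0516. Untreated Cd40 depended on 1 clone, with a log2FC of -0.24 (edgeR adjusted p = 0.685) and, without WT1, of 0.76 (0.000117).

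After IFNG, 2 of 8 members were higher in KO libraries, beside 10.9% of 13637 genes, and 2 were lower, beside 13%. Cd86 was again lower, at 0.836-fold (95% interval 0.765 to 0.913, edgeR adjusted p = 0.00505), and Icam1 again higher, at 1.18-fold (1.07 to 1.30, edgeR adjusted p = 0.0166). Cd274 was 1.16-fold higher (1.05 to 1.29, edgeR adjusted p = 0.0359), from 258 to 328 CPM in KO and from 217 to 292 CPM in WT. Cd80 was 0.539-fold (0.356 to 0.816, edgeR adjusted p = 0.0304), but KO1 at 0.936 CPM lay beside WT1 at 0.988 CPM. Each of these 4 calls was lost without at least 1 clone: Icam1 without KO1 (adjusted p = 0.508), Cd86 without KO2 (0.0843), Cd274 without KO1 (0.526) or WT2 (0.163), and Cd80 without KO2 (0.291) or WT2 (0.170). Libraries of 1 clone are not separate clones. With counts summed per clone, 3 WT against 2 KO clones, edgeR called 0 of 8 members in either treatment. Among all genes these fits called 1 of 16189 untreated and 1 of 16197 after IFNG, so 0 of 8 does not set the members apart. Dicer1 was not called either (edgeR adjusted p = 0.446 untreated and 0.257 after IFNG). At an unadjusted p under 0.05 there were 2 members untreated and 1 treated, beside 1842 and 1824 of all genes. Untreated Cd86 then had an adjusted p of 0.242 and untreated Icam1 one of 0.345. DESeq2 on single libraries called 2 members untreated, beside 4015 of 13886 genes, and 4 treated, beside 3567 of 13637 genes.

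**Figure D5:**
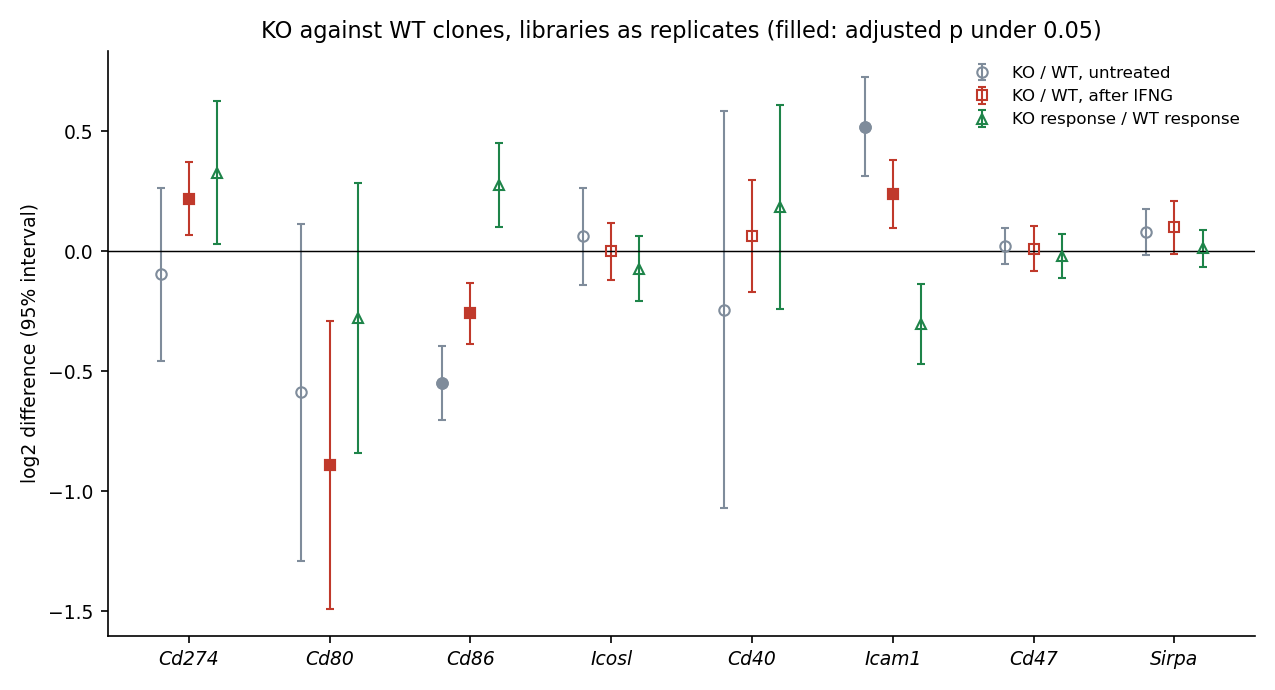
KO against WT as a log2 difference (vertical axis) for the 8 tested genes, untreated (circles), after IFNG (squares), and as the difference of the IFNG responses (triangles), with 95% intervals from edgeR on 6 KO and 9 WT libraries, or on all 30 for the responses. Cd86 lies below 0 and Icam1 above 0 in both treatments, and no triangle is filled.

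Other genes of the same pathways were taken as lists, to be read beside the 24.9% of all genes tested that rose over all clones and the 28.3% that fell. Among 18 other ligands of T cell co-receptors, 12 were tested, 6 rose and 4 fell, with a median log2FC of 0.19 (all genes, -0.0081). Btnl2, a butyrophilin-like inhibitor of T cells, rose by a log2FC of 2.95 ± 0.20 (SE), Tnfsf18 (the ligand of GITR) by 2.42 ± 0.17 and Tnfsf14 (LIGHT, a ligand of HVEM) by 1.71 ± 0.07, all of them below 3 CPM as a mean over the 15 untreated libraries. Tnfsf9, the ligand of 4-1BB, fell from 28.1 ± 6.37 to 13.4 ± 4.34 CPM (SD, n = 15), and the others that fell were Vsir (encoding VISTA), Ceacam1 and Cd276, named after their values were seen. Of the 6 that were not tested, Cd70, Cd200 and Btn2a2 had 0 counts in every library.

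The receptors and partners of the members numbered 13, of which 10 were tested, 2 rose (Spn and Rgmb) and 3 fell (Cd28, Icam2 and Itgb2), with a median of -0.12, beside 24.9% and 28.3% of all genes. Cd40lg had 0 counts in all 30 libraries, Ctla4 had 4 and Pdcd1 had 12, so these partners on the T cell side were at or near 0. Cd28 was measured at higher levels. Its untreated mean was 203 ± 10.8 CPM (SD, n = 3) in WT1, 73.1 ± 4.58 in WT2, 111 ± 11.1 in WT3, 10.0 ± 0.71 in KO1 and 23.3 ± 3.07 in KO2. After IFNG it was 104 ± 18.5, 20.8 ± 1.76, 30.8 ± 2.72, 2.38 ± 0.25 and 7.46 ± 0.76 CPM in the same order, lower in every clone and by a log2FC of -1.55 ± 0.08 over all clones. It was lower in KO than in WT libraries both untreated (log2FC -2.95 ± 0.35, edgeR adjusted p = 1.70e-05) and after IFNG (-3.37 ± 0.54, edgeR adjusted p = 0.000286). With counts summed per clone neither call held (edgeR adjusted p = 0.244 and 0.291), in fits that called 1 of 16189 and 1 of 16197 genes. Among the T cell markers, Cd5 was also highest in WT1 (37.8 ± 6.17 CPM untreated, against 1.75 to 7.24 CPM as the means of the other clones), and Lck was at 2.66 to 3.83 CPM over the untreated clone means and rose (log2FC 1.24). Cd3g, Cd2, Cd8a and Cd8b1 were at 0 in all libraries, and Cd3e had 1 count over all 30. Every library came from a clone of the J774A.1 line, and the basis of the Cd28, Cd5 and Lck levels in it was not tested.

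Of 12 CD40 signalling genes, all were tested, 9 rose and 0 fell, with a median of 0.37, beside 24.9% and 28.3% of all genes. Tnfaip3, which restrains NF-kB, rose most (1.33 ± 0.11), then the ubiquitin ligases Birc3 (1.06 ± 0.05) and Birc2 (0.76 ± 0.04) and the NF-kB subunit Relb (0.52 ± 0.05). Among 16 phagocytosis checkpoint genes, 11 were tested, 4 rose and 2 fell (Lrp1 and Pirb), with a median of 0.03, again beside 24.9% and 28.3%. Slamf7, a receptor of the SLAM family, went from 0.142 ± 0.059 to 2.43 ± 1.01 CPM (SD, n = 15), and Skap2, Ptpn6 (the phosphatase SHP-1, recruited by SIRPA) and Lilrb4a rose by log2FC of 0.28, 0.23 and 0.22. All 11 genes of the PD-L1 regulator list were tested, 6 rose and 4 fell, with a median of 0.16, beside the same 24.9% and 28.3%. Irf1 rose by 5.11 ± 0.03, Irf2 by 0.77 ± 0.03 and Jak2 by 0.69 ± 0.03, and Ifngr1, Ifngr2, Cmtm4 and Stub1 were those that fell. Ifngr2 had a higher log2FC in KO than in WT clones (interaction log2FC 0.30 ± 0.07, edgeR adjusted p = 0.0141), a call that was lost with counts summed per clone (edgeR adjusted p = 0.643). That fit called 2 of 16844 genes, and the Dicer1 interaction was not called in it either (edgeR adjusted p = 0.133).

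Finally, each member's profile over the 10 clone and treatment means of log2(CPM + 0.5) was set against the 12993 genes that reached 1 CPM as the mean of any group. The values share libraries and are split by the treatment, so the correlations are descriptive. Most like Cd274 were Gm4070, F830016B08Rik and BC023105, with Pearson's r from 0.997 to 0.998. Ralgds, Casp4 and Ptprc were most like Icam1 (r from 0.995 to 0.998), Parp3, Oas3 and Ifi204 most like Cd86 (0.987 to 0.991), and Gm1966, Gm8995 and 9130208D14Rik most like Cd47 (0.998 for each of the 3). For Cd40, with its high WT1 level, Gab2, Maff and Csrnp1 came closest (0.992 to 0.995), and for Icosl Gm22357, S1pr2 and Pim1 (0.971 to 0.974). Sirpa was most like Ints6, Madd and Fam78a (0.976 to 0.977). Cd80 had the weakest match, with Ptp4a3, Smyd1 and Wdr75 at 0.914 to 0.925. Between members, Cd274 and Cd47 had r of 0.995 with log2FC of 5.48 and 0.53, and Cd80 had r of 0.11 with Cd274.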

How the data were processed

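Poly(A) RNA of 30 J774A.1 libraries was sequenced as read pairs, and each deposited table gives unnormalized counts of fragments for every gene. The authors trimmed reads with BBDuk, aligned them with HISAT2 2.1.0 to mm10, kept uniquely aligned fragments, merged technical replicates with SAMtools 1.10 and counted exons with featureCounts 1.6.2 by strand, counting a fragment over overlapping genes for each (versions from the submitters' processing notes). The table header names Gencode vM18 and the methods a RefSeq annotation. No member shares exons with another gene on its strand. The exon length in kb came from the same deposited table. Of 14 deposited tables, 6 were read, and all 30 libraries held the same counts in the table of all samples and in the tables of single clones. The other 8 were not used here. Count columns carry a clone and treatment but no replicate number. Columns labelled wtc1 were taken as WT2 and wtc3 as WT3, as the single-clone tables hold them. The labels name more than 1 RNA input and more than 1 kind of adapter but not for which library, so no batch could be checked.

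Counts were tested with edgeR 4.0.16 under R 4.3.3 (genes kept by filterByExpr, TMM scaling, glmQLFit and glmQLFTest), with Benjamini-Hochberg adjustment over all genes tested and a threshold of 0.05. Clone responses used 3 against 3 libraries. The response over all clones had a clone term, the interaction fit had clone, treatment and a genotype by treatment term, and the tests among 5 clones had 4 degrees of freedom. A standard error was the size of the log2FC over the root of its F value, and 95% intervals used the fitted degrees of freedom. Intervals of levels are SDs over libraries. CPM used TMM factors of 14870 genes. The detection limit of 3 counts covers counting error only. Alternatives were DESeq2 1.42.0, RLE normalization, no count filter, at least 10 counts in every library, 1 fit over all libraries, counts summed per clone, no clone term, leaving out each library or clone, neighbours within 100 kb and likeness over 30 libraries. Fits were tested on simulated data. Tables were made in Python 3.11.15 (pandas 2.3.3, numpy 2.4.6, scipy 1.17.1) and plots with matplotlib 3.10.9.

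The members and lists were chosen with earlier results of these data known. Named genes were the members, up to 4 genes of each list with the largest absolute log2FC over all clones among those past the threshold with at least 1 CPM in some group, the 3 genes most like each member, neighbours within 250 kb past the threshold at 1 CPM or more, and Irf1, Gbp2 and Dicer1 as checks. Columns of the authors' own comparisons were not used here. The values of 1 gene that this rule names are not reported here.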

Additional observations from a re-analysis of the deposited data

Results flagged for a closer look

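For 3 members the size of the IFNG response differed among the 5 clones by a test of the difference itself.

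Cd40 had an edgeR adjusted p of 7.43e-11 for that difference. Its log2FC was lowest in WT1 (2.104), whose untreated level was the highest (19.3 ± 0.72 CPM, SD, n = 3), and highest in WT3 (3.63), whose untreated level was the lowest (4.53 ± 0.11 CPM).

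Cd274 had an edgeR adjusted p of 2.29e-06. Its log2FC was 4.82 in WT1 and 5.52 to 5.90 in the other 4 clones, and without WT1 the adjusted p was 0.244.

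Icam1 had an edgeR adjusted p of 8.81e-06. Its log2FC was 3.02 and 3.08 in WT2 and WT3 and 2.51 to 2.63 in WT1, KO1 and KO2. The part that the untreated level, a clone's history or the unassigned RNA inputs and adapters play in these differences was not tested.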

How the results depend on the processing

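No paired analysis was possible because the count columns carry no replicate number, so the fit with a replicate block was not run. Cd274, Cd40, Icam1, Cd86 and Cd47 kept their rise and their call in every clone under each alternative run. Cd80 and Pdcd1lg2 had few counts, at most 41 and 2 per library, and under a minimum of 10 counts in every library Cd80 could not be fitted in 6 comparisons. DESeq2 gave no adjusted p for Cd80 in the test of responses among the clones. The calls between KO and WT rest on few clones. With counts summed per clone, 0 members were higher and 0 lower in KO, untreated or after IFNG. Those fits called 1 gene each among all genes tested. The cause of the other changes below was not tested.

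Members that fell numbered 1 in WT3 without a count filter, and 0 in KO2 under RLE normalization and without a count filter. For the interaction, 2 members were higher and 1 lower without a count filter, beside 258 and 126 of 29004 genes. By DESeq2, 1 member was lower for the interaction, beside 52 of 14682 genes. Within 100 kb, 11 neighbours rose and 5 fell, and 15 of the 24 most alike genes were shared when likeness was taken over 30 libraries. Signs turned for Cd80 in WT3 by DESeq2 (log2FC 0.0019) and for Icosl in KO against WT after IFNG without a count filter (0.012) and with clone sums (0.0058).

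Leaving out 1 library at a time, Cd80 ranged from -0.20 to 0.095 in WT3 and from -0.37 to 0.056 in KO1, it was called in 1 fit of WT2 (edgeR adjusted p = 0.0414), and 0 to 1 members fell in KO2. Leaving out 1 clone at a time, the interaction called 0 to 1 members higher and 0 to 2 lower, and its log2FC ranged from -0.038 to 0.57 for Cd274, -0.50 to 0.45 for Cd40, -0.18 to 0.038 for Icosl, -0.031 to 0.0079 for Cd47 and -0.016 to 0.033 for Sirpa. Untreated KO against WT called 0 to 3 higher and 1 to 2 lower, with -0.26 to 0.22 for Cd274, -0.58 to 0.76 for Cd40, -0.059 to 0.21 for Icosl and -0.0010 to 0.061 for Cd47. After IFNG it called 0 to 3 higher and 0 to 2 lower, with -0.052 to 0.26 for Cd40, -0.062 to 0.052 for Icosl and -0.029 to 0.047 for Cd47.

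Over all genes, 7727 responded over all clones and 4687 with no clone term. The interaction called 150 genes, 384 without a count filter, 2 with clone sums and 21 to 570 without 1 clone. Responses differed among clones for 547 genes, 919 without a count filter and 319 without WT3. KO against WT called 3689 genes untreated and 3258 after IFNG, which became 1674 and 1411 without KO1, 6472 and 5992 without WT1, and 1 and 1 with clone sums.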
